A study of Mus musculus with 11 samples.

Results

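Transcripts of 10 neuronal genes were examined in astrocytes that had been sorted from 4 regions of the adult mouse brain. The genes were taken as a named list, 10 of the 24417 genes measured, covering vesicle release (Snap25, Syt1), the axonal cytoskeleton (Tubb3, Stmn2, Nefl), neuronal RNA-binding proteins (Rbfox3, Elavl4), glycolysis in neurons (Eno2) and the dendrite (Camk2a, Ddn). Of these, Ddn and Elavl4 were chosen by their regional values, Ddn for having no brainstem signal and Elavl4 for being low in the hippocampus, so these 2 genes are described without a test and every count of tested genes is over the other 8.

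The cells were eGFP-positive astrocytes from BAC Aldh1l1-eGFP mice of 16 weeks on a C57BL/6 background. In these mice the promoter of Aldh1l1, a folate enzyme of astrocytes, drives the green fluorescent protein used for fluorescence activated cell sorting. All 11 samples share this genotype, age and sort, and they differ in region: 3 came from the olfactory bulb (OB), 3 from the hippocampus (HC), 2 from the cortex (CX) and 3 from the brainstem (BS). The mice were of both sexes, and the labels give neither the sex of a sample nor whether the replicates of a region are separate animals, so that p-values measure the spread between these samples only.

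Neurons signal by releasing transmitter from synaptic vesicles, a step in which Snap25 forms part of the fusion machinery and Syt1 is the calcium sensor. Their long axons are given their shape by neurofilaments and microtubules, and many of their dendrites carry spines in which the kinase Camk2a is a main component of the postsynaptic density. RNA for these proteins is a usual check on a preparation of sorted glia, and some neuronal messages, such as that of Camk2a, also travel far out into the processes of neurons.

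Between 2830436 and 14149752 reads were counted on genes per sample, with a median of 5551700. The values are counts divided by one size factor per sample, so that a single read stood for 0.367 to 2.10 and the floor of 3 reads for up to 6.31. Reads of the ribosomal repeat Rn45s made up 0.966% to 2.93% of the counted reads in OB and HC samples and 17.97% to 25.7% in CX and BS samples. All 10 astrocyte markers on a check list had reads in every region. Per kilobase of exon, Aldh1l1 itself had region means of 183 to 283. Other astrocyte markers were less even. Slc1a3 had 1015 in BS and 4760 to 7394 elsewhere, and Slc1a2 had 10586 in BS and 14657 to 41943 elsewhere. Gfap ran from 270 in CX to 902 in HC, and Sox9 from 368 in BS to 644 in CX.

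The 10 neuronal transcripts were detected in all 4 regions apart from Ddn in BS, and together they took between 0.0424% and 0.179% of the counted reads of a sample. The regional differences centred on the BS, where some neuronal transcripts were higher than elsewhere and others lower. Against the other regions, 7 of the 8 tested genes were called in BS, compared with 9.03% of the 13872 genes tested. A gene was called when the unadjusted p of limma on log2(value + 1) was under 0.01, its fold change exceeded 1.5, and 2 or more replicates of one region had values above 5. Snap25, Eno2, Stmn2 and Nefl were higher in BS, with 3.98% of all tested genes called in that direction. Syt1, Rbfox3 and Camk2a were lower, with 5.05% of all tested genes called in that direction. With an adjusted p under 0.05, 5 of the 8 passed (Snap25, Stmn2, Nefl, Syt1 and Camk2a), compared with 5.41% of the tested genes. In whole sorted samples, a different number of neuronal cells or fragments and a different amount of a gene's RNA in each of them cannot be told apart.

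Pairs of single regions, which share samples, were compared next. Of the 8 genes, 5 were called between OB and BS (15.9% of all tested genes) and 5 between HC and BS (7.61%), Snap25, Syt1, Stmn2, Nefl and Camk2a in both. Between CX and BS 3 were called (13.5%), namely Nefl, Camk2a and Rbfox3. Camk2a and Nefl were called between OB and HC (9.93%) and between OB and CX (8.07%), lower in OB each time, and Stmn2 alone between HC and CX (4.69%). Some of these calls held on the unadjusted p alone. The adjusted p-values from limma were 0.2101 for Stmn2 between HC and CX, 0.06255 for Syt1 between HC and BS and 0.06325 for Rbfox3 between CX and BS.

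The BS counts changed when single samples were left out. Without BS_1 only 4 of 8 genes were called (Stmn2, Nefl, Rbfox3 and Camk2a), and without BS_3 again 4 (Nefl, Syt1, Rbfox3 and Camk2a). When the BS had to differ from each other region separately, 2 genes remained, Nefl and Camk2a. The share of all tested genes was not counted for these settings, so the drops cannot be called particular to these genes.

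In OB, 1 of the 8 genes was called, Nefl, which was lower (8.04% of all tested genes were called there). None was called in HC (1.28% of all tested genes) or in CX (2.77%). For these 2 regions edgeR and DESeq2 on the recovered reads also called 0. At an unadjusted p under 0.05, limma found 3 genes in HC, namely Snap25, Tubb3 and Stmn2, and 0 in CX. The share of all tested genes was not counted for this threshold. The pooled comparison group contained the BS samples, whose Camk2a values lay far from the rest. With a mean for each region in place of pooled samples, 3 genes were called in HC (Snap25 by a log2 fold change of -0.68, Stmn2 by -1.29 and Camk2a by 2.80), 1 in CX (Camk2a by 3.08) and 2 in OB (Nefl and Syt1). Shares of all tested genes were not counted for this setting either, so it is open whether its counts exceed them. Asked without choosing a region, a limma F test found 5 of the 8 genes to differ among the 4 regions at an adjusted p under 0.05, against 16.5% of all tested genes. These were Snap25, Syt1, Stmn2, Nefl and Camk2a, with adjusted p-values from limma between 1.054e-06 for Camk2a and 0.01194 for Snap25.

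**Figure D1:**
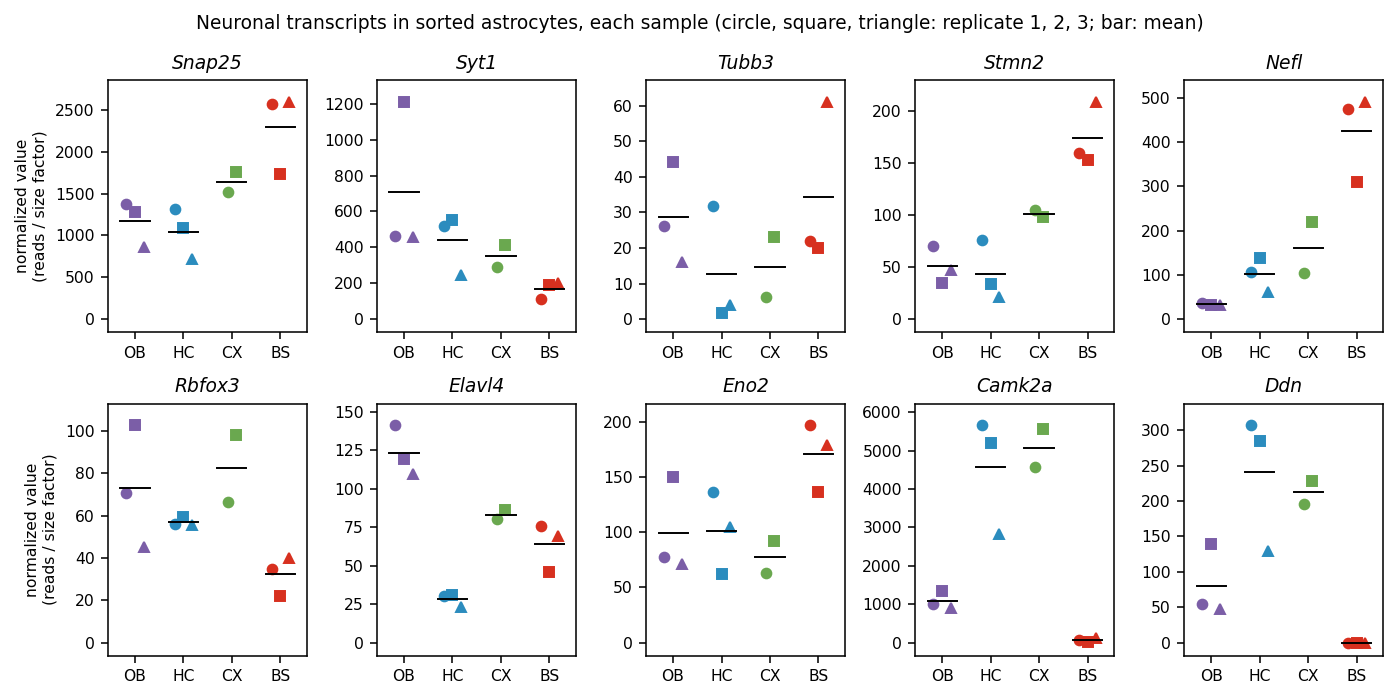
Normalized value (reads divided by the size factor of the sample, linear axes that differ between panels) of each neuronal gene in each sample, with circles, squares and triangles for replicates 1, 2 and 3 and a bar for the region mean. Nefl and Stmn2 have all BS samples above all others, Syt1, Rbfox3 and Camk2a all below, and Ddn is at 0 in the 3 BS samples. Of all tested genes, 3.71% have all BS samples on top and 4.19% all at the bottom.

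Upstream sequences are shown for 3 genes that stood on opposite sides in BS: Syt1 and Rbfox3, which were lower there, and Eno2, which was higher. RefSeq windows (GRCm38.p6) before an annotated start were at hand for 5 of the 10 genes, Syt1, Rbfox3, Tubb3, Eno2 and Elavl4, and not for Snap25, Stmn2, Nefl, Camk2a and Ddn. The sequences run 5′ to 3′ on the strand of the gene, which is the minus strand for all 3, exonic bases were trimmed, and capitals mark matches to a searched motif on either strand that lie whole within the printed bases. The Syt1 window is at chr10:109010983-109011225, the Rbfox3 window at chr11:118761042-118761291 and the Eno2 window at chr6:124769674-124769923. The Rbfox3 window precedes an internal start and holds no exonic base, inside the span of the gene, while the other windows end next to the annotated gene.
Syt1: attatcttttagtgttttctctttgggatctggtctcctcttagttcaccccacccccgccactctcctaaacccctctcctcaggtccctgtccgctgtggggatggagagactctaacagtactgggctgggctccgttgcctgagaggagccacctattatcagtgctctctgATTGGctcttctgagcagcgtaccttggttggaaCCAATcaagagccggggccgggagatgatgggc
Rbfox3: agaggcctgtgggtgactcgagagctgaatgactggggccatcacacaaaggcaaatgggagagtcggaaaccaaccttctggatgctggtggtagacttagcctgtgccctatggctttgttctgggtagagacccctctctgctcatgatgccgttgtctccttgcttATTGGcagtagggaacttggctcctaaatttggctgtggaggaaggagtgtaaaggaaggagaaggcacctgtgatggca
Eno2: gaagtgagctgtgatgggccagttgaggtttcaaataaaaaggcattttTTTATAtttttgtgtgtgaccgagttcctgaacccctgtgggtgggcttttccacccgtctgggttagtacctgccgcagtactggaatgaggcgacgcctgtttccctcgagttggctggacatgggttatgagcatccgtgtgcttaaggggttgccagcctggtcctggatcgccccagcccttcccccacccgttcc
The motifs searched on both strands of the 250 bases before each start were the TATA box as TATAAA, the GC box as GGGCGG, the cAMP response element as TGACGTCA, the CCAAT box and one E box as CAGCTG, none of which lies within another. The capitals in Syt1 and Rbfox3 are CCAAT matches, which begin 74 and 40 bases before the start of Syt1 and 80 bases before that of Rbfox3. A GGGCGG match 11 bases before the start of Syt1 runs into the trimmed bases, and its printed part is in lower case. In Eno2 they are a TATAAA match on the opposite strand, 201 bases before the start. Over all 32851 mouse windows, 33.8% held CCAAT, 12.4% TATAAA, 32.7% GGGCGG, 13.0% CAGCTG and 1.55% TGACGTCA. Of the 9 windows of the 5 genes, 6 held CCAAT, 3 CAGCTG, 2 GGGCGG and 1 TATAAA. A pair of the 4 Elavl4 windows overlap for most of their length, so that 1 CCAAT and 1 CAGCTG site are each counted in both. Matches of this kind describe the sequence only.

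The vesicle genes Snap25 and Syt1 changed in opposite directions in BS. Snap25 (chromosome 2, 136713453 to 136782428 in GRCm38) codes for the plasma membrane partner of the vesicle fusion complex. Its values were 1377, 1277 and 856 in OB samples, 1319.9, 1084 and 717 in HC, 1515 and 1757 in CX and 2567, 1735 and 2595 in BS. BS_1 and BS_3 were the highest samples, and BS_2 lay just under CX_2. The log2 fold change in BS was 0.92 (standard error 0.25, adjusted p = 0.04417 from limma). It was no longer called without BS_1 (0.83) or without BS_3 (0.82). The region means ran from 2299 ± 489 (SD, n = 3) in BS through 1636 ± 171 (SD, n = 2) in CX and 1170.0 ± 276 (SD, n = 3) in OB to 1040.3 ± 304 (SD, n = 3) in HC. The ranges of CX and OB did not overlap, whereas those of BS and CX, and those of OB and HC, did. Of all tested genes, 18.8% had all OB samples below both CX samples.

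Syt1 (chromosome 10, 108497650 to 109010982), the calcium sensor of fast release, had values of 464, 1209 and 455 in OB, 519.7, 553 and 245 in HC, 288 and 411 in CX and 115, 192 and 199.95 in BS. All 3 BS samples were below every other sample, as for 4.19% of all tested genes, and OB_2 stood well above the rest. It differed in BS by a log2 fold change of -1.49 (standard error 0.37, adjusted p = 0.03129 from limma). Without BS_1 it was -1.24 and no longer a call. In OB the log2 fold change was 1.18 (standard error 0.44), which DESeq2 called and limma did not. The ratio of Syt1 to Snap25 was 0.337 to 0.947 in OB, 0.342 to 0.510 in HC, 0.190 to 0.234 in CX and 0.0446 to 0.111 in BS.

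Among their relatives, compared per kilobase of exon, Snap25 was the most abundant Snap gene in each region mean (466 in HC to 1029 in BS), while Snap23, the form found outside neurons, had 106 to 164. Syt1 was below Syt11, a synaptotagmin also made by glia, in each region, with 147 against 690 in OB and 35.0 against 488 in BS. Syt2, the calcium sensor of fast synapses in the hindbrain, had no read in OB. Its values were 41.0, 46.1 and 80.0 in BS samples, whereas no HC or CX sample exceeded 7.54. Of 18 other genes of vesicle release, 1 was higher in BS (Vamp1) and 1 lower (Bsn), with a median log2 fold change of -0.30 beside 0.02 over all tested genes, and these 11.1% called lie near the 9.03% of all tested genes. Vamp1, a vesicle SNARE of caudal neurons, had 219.7, 138 and 215 in BS samples and at most 35.3 in any other sample (log2 fold change 3.60, standard error 0.60, adjusted p = 0.00287 from limma). In CX 3 of the 18 were higher (16.7%, against 2.77% of all tested genes), namely the fusion regulator Cplx2, the membrane SNARE Stx1a and the vesicle SNARE Vamp2. In HC 1 was lower, Cplx1 (105 against 223 elsewhere), and in OB 1, Vamp1 (7.09 against 87.0). Each is 5.56% of the list, beside 1.28% of all tested genes in HC and 8.04% in OB.

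Of the 3 cytoskeletal genes, Nefl and Stmn2 were higher in BS and Tubb3 was not called. Nefl (chromosome 14, 68083863 to 68089095) codes for the light neurofilament subunit, on which neurofilaments of large axons are built. Its values were 36.9, 31.6 and 32.3 in OB, 107, 139 and 61.3 in HC, 104 and 219 in CX and 474, 311 and 490.4 in BS. The BS samples were above and the OB samples below all others, with no overlap in either case (3.71% of all tested genes had all BS samples on top and 3.24% all OB samples at the bottom). The region mean in BS, 425 ± 99.5 (SD, n = 3), was 12.6 times that in OB, 33.6 ± 2.89 (SD, n = 3). The log2 fold change was 2.497 in BS (standard error 0.53, adjusted p = 0.01457) and -2.45 in OB (standard error 0.55, adjusted p = 0.02011), both from limma. Nefl and Nefm lie on opposite strands and share 1108 exonic bases in the annotation, and since it is not stated whether strand was used in counting, reads there cannot be assigned to one of them.

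Stmn2 (chromosome 3, 8509360 to 8561606), a microtubule regulator of growing and regenerating axons, had values of 70.6, 34.7 and 46.9 in OB, 75.6, 33.8 and 21.6 in HC, 104 and 98.1 in CX and 159.8, 152 and 208 in BS. All BS samples exceeded all others (as for 3.71% of all tested genes), and both CX samples exceeded all OB and HC samples. Of all tested genes, 18.8% had all OB samples below CX and 15.9% all HC samples below CX. Its log2 fold change in BS was 1.67 (standard error 0.43, adjusted p = 0.03902 from limma). Without BS_3 it was 1.53 and no longer called. Between single regions, Stmn2 was the 1 gene of 8 called between HC and CX, being lower in HC by a log2 fold change of -1.38. That call held on the unadjusted p alone (standard error 0.47, adjusted p = 0.2101 from limma).

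Tubb3 (chromosome 8, 123411424 to 123422015), the neuronal form of beta-tubulin, was the tested gene not called in BS. It had values of 26.1, 44.2 and 16.2 in OB, 31.9, 1.83 and 4.04 in HC, 6.28 and 23.0 in CX and 22.1, 20.03 and 61.0 in BS. The 4 regions overlapped, and a single region spanned a wide range: HC_2 held 2 reads, whose 95% Poisson interval (exact, counting error only) reached from 0.221 to 6.60, and HC_1 held 51. The log2 fold change in BS was 1.12 (standard error 0.80, adjusted p = 0.4589 from limma). Per kilobase, Tubb3 had region means of 6.73 to 18.4, while Tubb2a, Tubb2b, Tubb4a, Tubb4b and Tubb5, which glia also make, each had at least 110.6 in every region.

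Of 14 other cytoskeletal genes tested, 6 were higher in BS and 0 lower, where 3.98% of all tested genes were called higher. The median log2 fold change was 0.71 beside 0.02 over all tested genes. edgeR called 4 of the 14 higher, and DESeq2 called the same 6 higher and Dpysl3 lower. These 6 were the neurofilament subunits Nefh, Nefm and Ina, the microtubule proteins Map1b and Stmn4, and the neuronal ubiquitin hydrolase Uchl1. Nefh, the heavy subunit, had 339.6, 202 and 210.5 in BS samples and at most 42.5 elsewhere (log2 fold change 3.84, standard error 0.57, adjusted p = 0.001266 from limma). Nefm, the medium subunit, had 182, 126 and 143 in BS and at most 38.9 elsewhere (3.43, standard error 0.62, adjusted p = 0.005369 from limma). All 3 BS samples exceeded all other samples for both, as for 3.71% of all tested genes. In OB 2 of the 14 were higher and 3 lower (35.7% called, against 8.04% of all tested genes). Dcx, a microtubule protein of migrating neuroblasts, was higher, at 349 against 24.3 elsewhere, together with Dpysl3. The kinesin motors Kif5a (1576 against 7349) and Kif5c and the axonal protein Mapt were lower.

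The genes of neuronal RNA-binding proteins were at moderate levels. Rbfox3 (chromosome 11, 118489762 to 118911597) codes for the splicing factor known as the nuclear antigen NeuN. Its values were 70.6, 103 and 45.2 in OB, 56.2, 59.4 and 55.8 in HC, 66.6 and 98.1 in CX and 34.7, 22.0 and 40.0 in BS. The BS samples lay below all others (as for 4.19% of all tested genes). The other regions overlapped, apart from HC, which lay below CX (as for 15.9%). Against the other regions its log2 fold change in BS was -1.07 (standard error 0.31, adjusted p = 0.06317 from limma), so that the call holds on the unadjusted p alone, and without BS_2 it was -0.83 and no longer called.

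Elavl4 (chromosome 4, 110203722 to 110351909) codes for HuD, a stabilizer of messages in neurons, and was chosen for being low in HC. Its values were 141, 119 and 109.9 in OB, 80.4 and 85.9 in CX, 75.7, 46.1 and 69.5 in BS and 30.0, 31.1 and 23.1 in HC. No 2 neighbouring regions in this order overlapped. Of all tested genes, 18.8% had all OB samples above CX, 18.4% both CX samples above BS and 9.28% all HC samples below BS. The region means were 123 ± 16.1 (SD, n = 3) in OB, 83.1 ± 3.86 (SD, n = 2) in CX, 63.7 ± 15.6 (SD, n = 3) in BS and 28.1 ± 4.31 (SD, n = 3) in HC, a 4.40-fold range. Its relatives had other orders: per kilobase, Elavl1, which most cells make, had 79.1 to 89.3 in the 4 regions, Elavl3 27.9 in HC and 46.5 in CX, and Elavl2 3.35 in OB and 12.6 in BS, against 5.88 to 25.9 for Elavl4. Elavl2 was called higher in BS (log2 fold change 1.60, standard error 0.46). Of the 8 other RNA-binding genes, 1 was higher (Elavl2) and 3 were lower in BS: Celf4, Celf5 and the splicing factor Nova2. Celf5 had 2.10, 12.02 and 10.5 in BS and at least 23.5 elsewhere. None of the 8 was called in OB, HC or CX by limma, edgeR or DESeq2, and 1, Celf4 in CX, had an unadjusted p under 0.05 from limma.

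Eno2 (chromosome 6, 124760053 to 124769673), the neuron-specific enolase of glycolysis, had values of 77.1, 150.0 and 71.1 in OB, 136, 62.1 and 105 in HC, 62.8 and 92.0 in CX and 197, 136 and 179 in BS. BS_1 and BS_3 were the highest samples, while BS_2 lay below OB_2. The log2 fold change in BS was 0.90 (standard error 0.29, adjusted p = 0.0913 from limma). This was the least stable of the 7 BS calls: it was lost with edgeR, with rescaling by TMM factors and on leaving out any one of 7 samples (OB_1, OB_3, HC_2, either CX sample, BS_1 or BS_3). The ratio of Eno2 to Rbfox3 was 4.47 to 6.18 in BS samples and at most 2.42 in any other. Per kilobase, Eno2 had 27.7 to 61.0, and Eno1b, chosen after its values were seen, 656 to 1001. Eno1 had at most 0.538, and reads of the near-identical Eno1 and Eno1b could be split by the counting, so their separate values are uncertain.

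The largest regional difference of the tested genes was that of Camk2a in BS. Camk2a (chromosome 18, 60925618 to 60988152) codes for the alpha subunit of the calcium/calmodulin-dependent kinase of excitatory forebrain synapses, and its message is carried into dendrites. Its values were 991, 1348 and 912 in OB, 5656, 5192 and 2834 in HC, 4584 and 5567 in CX and 55.7, 14.0 and 109 in BS. The BS samples were below all others (as for 4.19% of all tested genes) and the OB samples between the BS and the remaining regions, without overlap. Of all tested genes, 15.4% had all OB samples above BS, 12.6% all below HC and 18.8% all below CX. Its log2 fold change in BS was -5.88 (standard error 0.67, adjusted p = 0.0001892 from limma). Between single regions Camk2a was lower in OB than in HC by a log2 fold change of -2.03 (standard error 0.50, adjusted p = 0.01925 from limma) and than in CX by -2.24 (standard error 0.56, adjusted p = 0.02953), and the pairs share samples. HC and CX differed by -0.21 (standard error 0.56) and were not called. Per kilobase, Camk2a had 897 in CX and 10.6 in BS. The other kinase genes spanned narrower ranges, with 45.0 to 88.4 for Camk2b, 50.5 to 95.9 for Camk2d and 213 to 400.3 for Camk2g, and Camk2b and Camk2d were called higher in OB.

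Ddn (chromosome 15, 98803777 to 98809490) codes for dendrin, a protein of forebrain dendrites whose message is also found there, and was chosen for its lack of signal in BS. Its values were 54.3, 139 and 47.4 in OB, 307, 285 and 129.5 in HC, 196 and 228 in CX and 0 in each BS sample. The 3 BS samples together held 0 reads, which allows a mean value of up to 1.56 (3 reads over the group), while the OB held 314 reads, the HC 1156 and the CX 305. Relative to that limit, Ddn was at least 51.5-fold higher in OB, 154-fold in HC and 136-fold in CX. The ratio of Camk2a to Ddn was 18.2 to 24.4 in HC and CX samples and 9.70 to 19.3 in OB. An antisense gene, B130046B21Rik, overlaps 177 exonic bases of Ddn, whose reads cannot be told apart without strand.

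Other genes of the postsynaptic density and dendrite were also lower in BS. Of 12 tested, 7 were lower and 0 higher, where 5.05% of all tested genes were called lower in BS. The median log2 fold change was -1.43 beside 0.02 over all tested genes. The same 7 were called lower by edgeR, and these and Nrgn by DESeq2. Lrrc7, the scaffold protein densin, had 33.6, 32.1 and 21.0 in BS and at least 114 elsewhere (log2 fold change -2.79, standard error 0.30, adjusted p = 0.000107 from limma). Psd, an exchange factor of the postsynaptic density, changed by -2.49 (standard error 0.51, adjusted p = 0.01165 from limma). Icam5, an adhesion molecule of forebrain dendrites, had 0, 0 and 2.10 in BS and 3.30 to 77.4 elsewhere. The remaining 4 were Arc, Dlgap3 and the scaffolds Dlg4 and Shank1, with log2 fold changes of -0.93 for Dlg4 and -1.30 for Shank1. In OB 2 of the 12 were higher, Camk2b and Dlgap1 (16.7%, against 8.04% of all tested genes). In CX 1 was higher, Dlgap3 (8.33%, against 2.77%). Of 11 genes of neuronal excitability, 1 was lower in BS (the calcium channel gene Cacna1b, not called by edgeR), 1 in OB (Thy1) and 1 in HC (Snhg11). That is 9.09% in each, close to the 9.03% and 8.04% of all tested genes called in BS and OB, with 1.28% in HC.

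**Figure D2:**
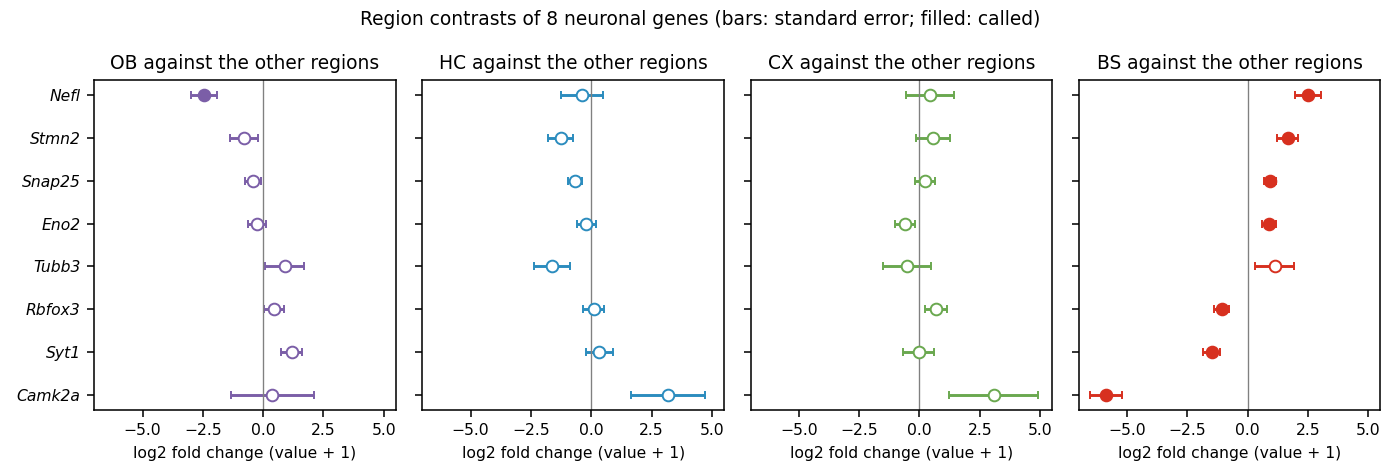
Log2 fold change on the log2(value + 1) scale (horizontal axis) of the 8 tested genes in each region against the samples of the other regions, with bars for the standard error and filled points for calls. Of the 8, 7 are called in BS and 1, Nefl, in OB, while the signs of Camk2a in OB, Nefl in CX and Rbfox3 in HC, none of them called, were opposite with edgeR and DESeq2.

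**Figure D3:**
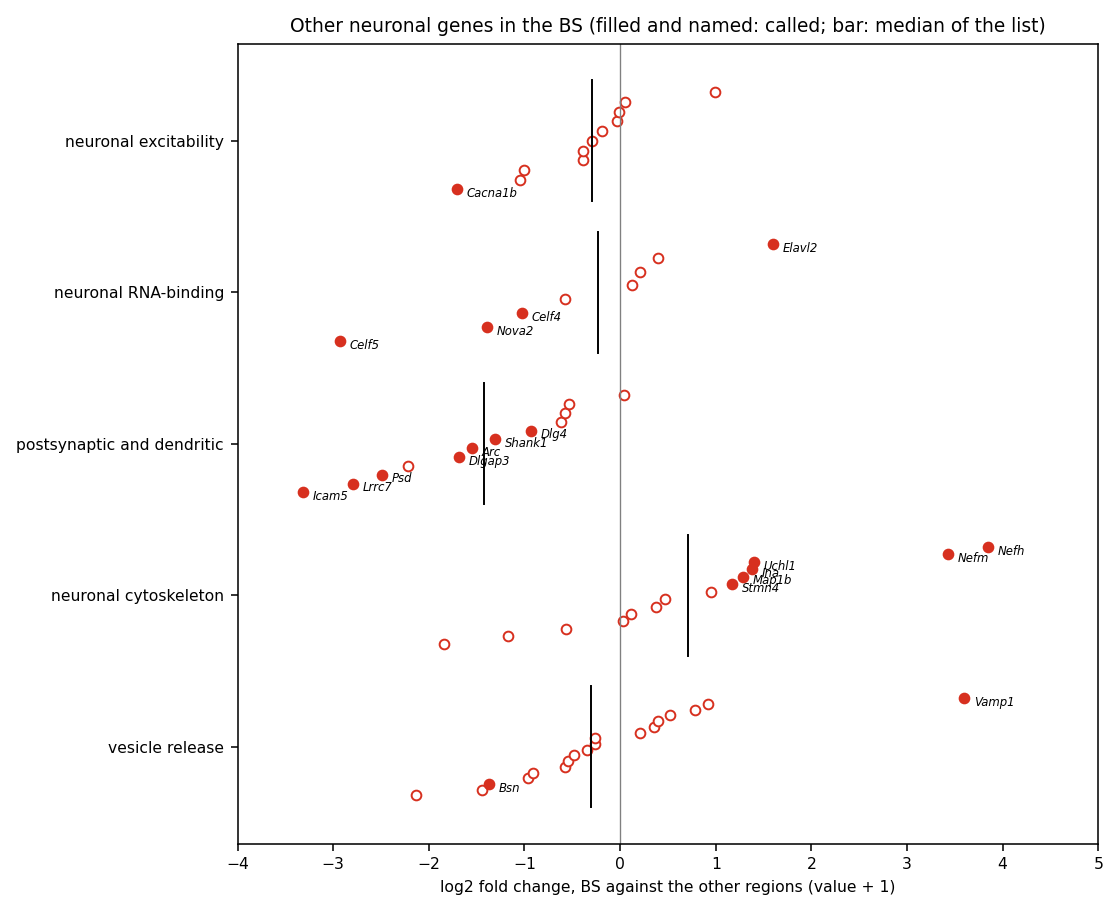
Log2 fold change in BS against the other regions (horizontal axis) of 63 other neuronal genes, one point per gene in 5 lists, filled and named where called, with a bar at the median of each list. The called cytoskeletal genes lie to the right of 0 and the called postsynaptic genes to the left.

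In total, 20 of these 63 other neuronal genes were called in BS, which is 31.7% against 9.03% of all tested genes, with 8 higher and 12 lower. The OB had 9 (14.3% against 8.04%), the CX 4 (6.35% against 2.77%) and the HC 2 (3.17% against 1.28%). With each other region required to differ separately, the BS count was 10 and the OB count 5. For this rule the share of all tested genes was not counted.

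In region means, the summed level of the 10 transcripts was higher in HC and CX than in OB and BS. The samples overlapped, with HC_3 (4197) below OB_2 (4455). As a share of counted reads, the HC mean (0.135%) was above that of CX (0.115%). Camk2a made up most of the sum in HC and CX. The sum, which is not per length, was 3452 ± 939 (SD, n = 3) in OB, 6625 ± 2141 (SD, n = 3) in HC, 7794 ± 1112 (SD, n = 2) in CX and 3427 ± 703 (SD, n = 3) in BS. Camk2a gave 30.0% to 35.2% of it in OB samples, 67.5% to 69.8% in HC, 64.9% to 65.4% in CX and 0.534% to 2.77% in BS. Snap25 gave 65.7% to 69.4% in BS and at most 41.6% in any other sample. Without Camk2a, a choice made after seeing the data, the order turned: the sum was 3368 ± 660 (SD, n = 3) in BS, 2718 ± 417 (SD, n = 2) in CX, 2368 ± 715 (SD, n = 3) in OB and 2065 ± 631 (SD, n = 3) in HC. These ranges overlapped in part, and no test was made of them.

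Within each region 1 sample was low for most of the 10 genes at once. In OB it was OB_3, the lowest of its region for 8 of 10 genes, where 33.2% of all tested genes had their lowest value. In HC it was HC_3, again for 8 of 10 (34.3% of all tested genes), in CX CX_1 for 9 of 10 (51.5%) and in BS BS_2 for 8 of the 9 with reads (38.9%). The summed level in these samples was 75.1%, 63.3%, 89.9% and 76.7% of the mean of the region. Of the 63 other neuronal genes, HC_3 was lowest for 52, CX_1 for 43 and OB_3 for 37. In BS this differed, with BS_1 lowest for 31 and BS_2 for 22. The within-region SD on the log2 scale, as the median over the 10 genes, was 0.54 in OB, 0.58 in HC, 0.28 in CX and 0.37 in BS, beside 0.32, 0.38, 0.26 and 0.45 over all tested genes.

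Markers of other cell types moved with these samples. The microglial list was lowest in the same 4 samples, for 10 of 10 genes in OB_3, HC_3 and CX_1 and 7 of 10 in BS_2, and its sum ranged from 1697 in BS_2 to 5778 in HC_2. The summed endothelial markers were lowest in those 4 samples as well, with 379 in OB_3 and 635 in HC_3 against 1619 in OB_1 and 3466 in HC_1. By gene, OB_3, HC_3 and CX_1 were each lowest for 8 of 8. In BS the sums of BS_2 (1971) and BS_1 (2036) were close, and BS_2 was lowest for 3 genes and BS_1 for 4. The oligodendrocyte list was lowest for 7 of 10 genes in OB_3, 10 in HC_3 and 8 in CX_1 but 3 in BS_2, where BS_1 was lowest for 7. Its sum was lower in CX_2 than in CX_1 (96.6% against 103% of the region mean). The astrocyte list was highest in all 4, with 110.7%, 116%, 106% and 154% of the region mean. No microglial, endothelial, oligodendrocyte or astrocyte marker was without reads in a whole region. The summed markers of olfactory sensory neurons were 415 to 822 in the OB samples and at most 401 elsewhere, and those of oligodendrocyte precursors were 186 to 297 over all samples. Their part in the values of the neuronal genes was not tested.

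**Figure D4:**
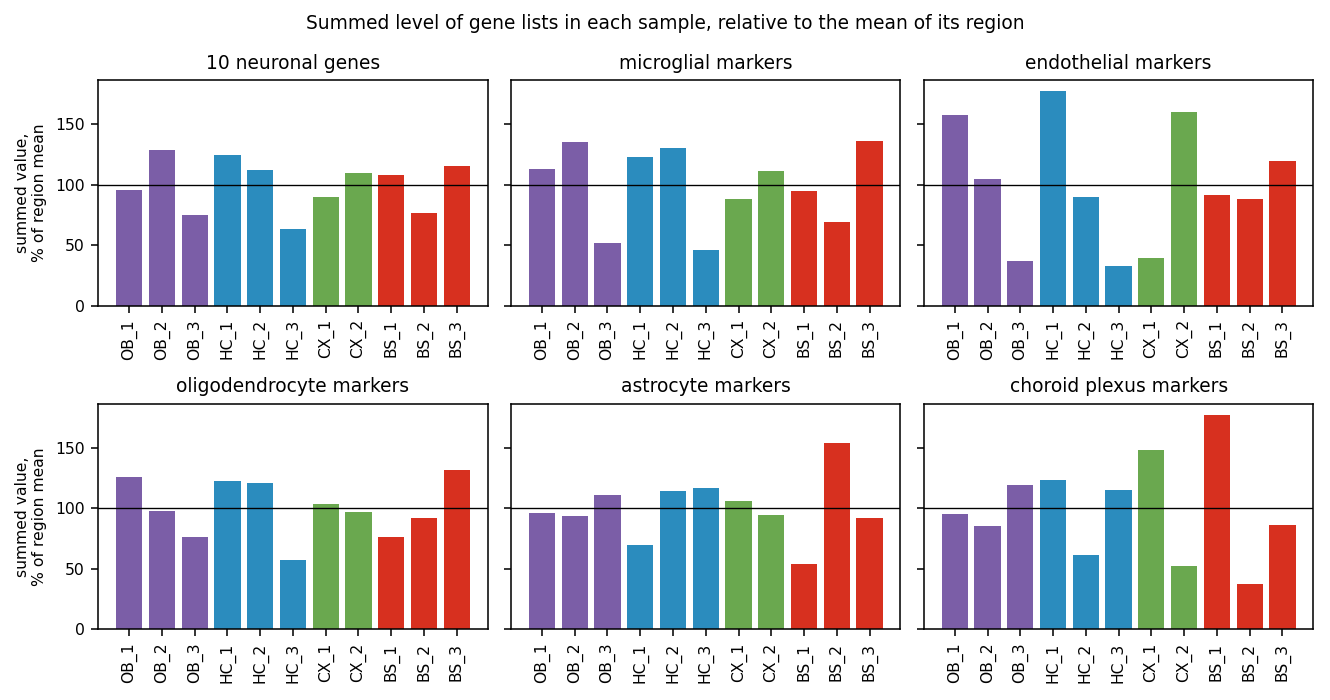
Summed value of 6 gene lists in each sample, as a percentage of the mean of its region (vertical axis, line at 100%). OB_3, HC_3, CX_1 and BS_2 are lowest in their region for the neuronal genes and for the microglial and endothelial markers and highest for the astrocyte markers, while BS_1 has the lowest astrocyte and the highest choroid plexus sum.

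Across regions, other markers differed too. The oligodendrocyte sum was 9741 to 16008 in OB and 52452 to 90300.2 in BS, and it did not overlap between the BS and any other region. The choroid plexus sum was 222 to 310.3 in OB, 1783 to 5061 in CX, 72353 to 146799 in HC and 52396 to 247366 in BS, where BS_1 was highest. The astrocyte sum was 106147 in BS_1, 302764 in BS_2 and 180880.0 in BS_3, and in CX 604168 to 679319. Of the 10 astrocyte markers, 2 were called lower in BS and 0 higher, where 5.05% of all tested genes were called lower. These were Slc1a3 (log2 fold change -2.64, standard error 0.34, adjusted p = 0.000479 from limma) and Glul (-1.46, standard error 0.29, adjusted p = 0.009974 from limma). Whether these differences bear on the regional values of the neuronal genes was not tested.

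Genes that mark the neurons of one region also differed between the regions. Of 9 tested genes of olfactory bulb interneurons and neuroblasts, 8 were higher in OB and 0 lower. That compares with 8.04% of all tested genes called there in either direction. The median log2 fold change was 3.48 beside 0.02 over all tested genes. Sp8, Dlx2 and Dlx5 had means of 1.48, 1.19 and 0.754 in the samples outside the OB. They passed the filter through the OB alone, so the direction of their calls was fixed beforehand. Sp8, a transcription factor of these interneurons, had 242, 278 and 271 in OB and at most 4.60 elsewhere. Gad1, which makes the inhibitory transmitter GABA, was higher in OB by 3.48 (standard error 0.42, adjusted p = 0.0003074 from limma). The summed list was 1356 to 1701 in OB samples and 144 to 357 in all others. Th, the enzyme of dopamine synthesis, was called in OB by limma and edgeR but not by DESeq2, and its values were 26.1, 66.3 and 13.5 there and 20.03 in BS_2, with at most 0.367 in the remaining samples.

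Of 7 tested genes of forebrain glutamatergic neurons, 2 were lower in BS (Bcl11b and Fezf2), 1 was higher in HC (Neurod6), 1 was higher in CX (Tbr1) and 1 was lower in OB (Neurod6). Of all tested genes, 9.03% were called in BS, 1.28% in HC, 2.77% in CX and 8.04% in OB, so that 1 call of 7 (14.3%) in OB is not far from the share over all genes. The summed list was 384 to 493 in HC and 401 to 501 in CX, 133 to 196 in OB and 18.9 to 52.6 in BS. Within regions it was highest in OB_3 (126% of the region mean) and HC_3 (110%), where most of the 10 transcripts were lowest. In CX it was lowest in CX_1 (88.8%), as they were, and BS_2 had 108%. Why the replicates differ in this way was not tested. Fezf2, the gene with the most signal on this list, had no read in BS and 26.1 to 367 elsewhere. Tbr1, a factor of cortical projection neurons, had 94.2 and 103 in CX and at most 25.7 elsewhere. Slc17a7, the vesicular glutamate transporter of forebrain neurons, was lower in BS by a log2 fold change of -3.00 (standard error 0.42, adjusted p = 0.0008343 from limma), with 21.0, 14.0 and 10.5 there and at least 56.5 elsewhere. Slc17a6, the transporter of subcortical neurons, had 53.6, 56.1 and 65.2 in BS and 2.51 and 4.60 in CX, where it was called lower.

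The genes of brainstem neurons were low throughout. Of the 9 listed, 4 passed the filter on low values, and 2 of these were higher in BS, the glycine transporter Slc6a5 and the choline transporter Slc5a7. Over all tested genes, 3.98% were called higher there. The call of Slc5a7 held on the unadjusted p alone (adjusted p = 0.0853 from limma) and was not made by edgeR. Tph2, the gene with the most signal on this list, was tested and not called in BS. In the samples outside the BS, Slc6a5 had a mean of 0.316 and Slc5a7 a mean of 2.07. Neither would have passed the filter without the BS, so the direction of their calls was fixed beforehand. The count of 2 can therefore not be set against the share over all tested genes. Slc6a5 had 17.9, 18.03 and 14.7 in BS and at most 1.62 elsewhere. Chat, which makes acetylcholine, had reads in BS_2 and BS_3 only, with 1 read each, and Phox2a had none in any sample. The summed list was 48.4 to 114 in BS, 5.93 to 7.60 in OB, 15.04 to 38.1 in HC and 13.8 to 42.7 in CX.

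**Figure D5:**
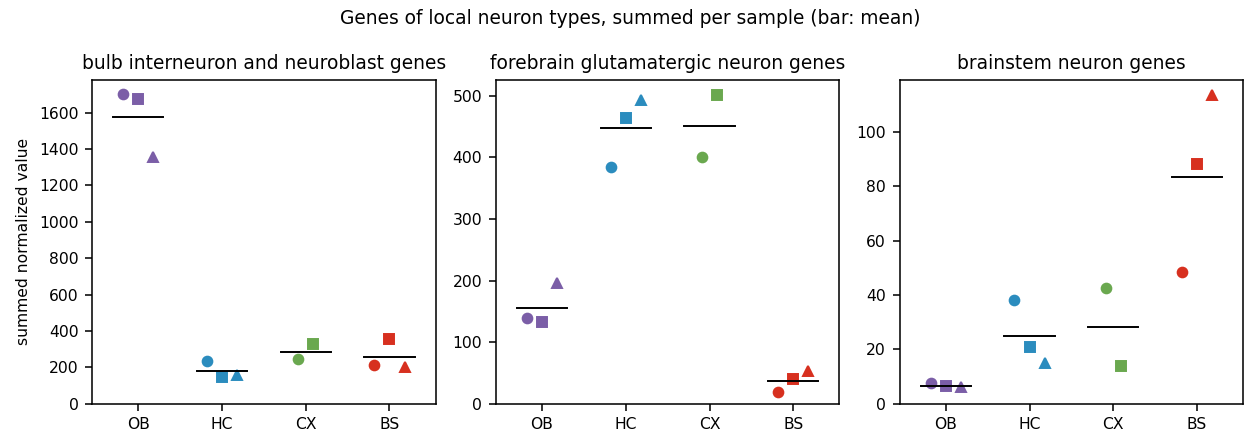
Summed normalized value (vertical axes, from 0) of genes of olfactory bulb interneurons and neuroblasts, forebrain glutamatergic neurons and brainstem neurons in each sample, with a bar for the region mean. The first list is highest in OB, at 1356 to 1701, the second in HC and CX, and the third in BS, at 48.4 to 114.

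The genes whose values followed the 10 transcripts most closely were sought among all other tested genes, as a description over 11 samples that share their libraries and depth. With the mean over the 10 genes of log2(value + 1), the highest Pearson correlations were those of Celf4 (0.95) and Shank1 (0.95), an RNA-binding protein and a postsynaptic scaffold gene described above, followed by Cdk5r2 (0.90), Fam117b (0.89) and Pdgfrb (0.88). For the deviations from the region means, which leave only the spread between replicates, they were Inpp5k (0.98), Meox1 (0.97), Dmtn (0.97), Arfgef3 (0.97) and Arhgef2 (0.96). The genes most like Ddn were AA387883 (0.99), Neurl1b (0.99) and Hpcal4 (0.98), of which Hpcal4, a neuronal calcium sensor, had 369 to 1446 outside the BS and 58.1 to 73.7 in it. The genes most like Elavl4 were Sgsm1 (0.95), Usp51 (0.94) and Kcnh5 (0.94), all of them with their lowest values in HC. These low values, like those of Hpcal4 in BS, follow from choosing the genes by their likeness to Elavl4 and Ddn.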

How the data were processed

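RNA-seq values of 24421 entries in 11 samples were used, placed in groups by brain region. The authors mapped reads with STAR 2.5.0a to mm10, counted them on UCSC transcripts and divided each sample by a DESeq2 1.20.0 size factor, so the deposited unit is a normalized signal, which the paper calls RPM. FastQC is also named in the submitters' processing notes. Every value above 0 (100%) equalled a whole read count times the worth of one read, within 0.01, and reads were recovered from them. Names that 2 entries share (4 entries) were dropped.

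Because the values were normalized, a two-sided limma-trend fit (limma 3.58.1, R 4.3.3) of log2(value + 1) was used in place of edgeR, which had been planned for counts. Genes passed edgeR's filterByExpr on recovered reads, and adjusted p-values follow Benjamini and Hochberg. The pipeline was tested on simulated data. Alternatives were edgeR 4.0.16, DESeq2 1.42.0, a pseudocount of 0.25, no filter, TMM rescaling, adjusted p-values, other comparison groups, a replicate block and leaving out samples. Python 3.11.15 with pandas 2.3.3, numpy 2.4.6, scipy 1.17.1 and matplotlib 3.10.9 was used for sums and plots. Gene positions and exon lengths are those of GENCODE on GRCm38. Intervals and floors cover counting error only.

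The genes, lists and tests were chosen with earlier results of these data known. Genes named are the 10 members, their relatives, the called genes of each list (up to 3 with the largest change per region, and those without reads in a region) and those of highest correlation. Further called genes were named to complete the counts.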

Additional observations from a re-analysis of the deposited data

How the results depend on the processing

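Of the counts of the 8 tested genes, that in OB rose from 1 to 2 with DESeq2. A mean for each region gave 2 in OB, 3 in HC and 1 in CX, and the count in BS fell from 7 to 2 when each other region had to differ. Of the 63 other neuronal genes, a mean for each region gave 16 in OB, 6 in HC, 17 in CX and 31 in BS, and separate regions gave 5, 0, 1 and 10. In HC edgeR gave 1 of the 63 and DESeq2 4. The share of all tested genes called was not counted for any of these settings. The shifts can therefore not be called particular to neuronal genes. At an adjusted p under 0.05 the HC and CX gave 0. The replicate numbers did not pair the samples (correlations of same-numbered deviations from -0.16 to 0.25 over 15 pairs), and a replicate block gave 6 of 8 genes in BS and 2 other neuronal genes in CX.

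Leaving out single samples gave 1 to 2 of 8 genes in OB, 0 to 1 in HC, 0 to 0 in CX and 4 to 7 in BS, and 4 to 6 in the F test. For the other neuronal genes the ranges were 7 to 11 in OB, 0 to 3 in HC, 1 to 8 in CX and 14 to 23 in BS. A CX sample left alone was assumed to vary like the others. The CX count was 8 without HC_1, 2 without BS_1 and 1 without either CX sample, and the HC count 0 without HC_3 and 1 without BS_3. The summed level, relative to the mean of the samples, ranged from 0.571 to 0.726 in OB, 1.22 to 1.51 in HC, 1.46 to 1.75 in CX and 0.607 to 0.721 in BS. Without Camk2a it was 0.903, 0.788, 1.04 and 1.28. Scaling to total reads gave 1.24 in CX, and the median of log2 values 1.23 in CX and 1.02 in BS. The cause of these shifts was not tested. At 0 reads, values up to the floor cannot be told from 0.

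No call of the 8 genes changed direction, but log2 fold changes that were not called did. With edgeR and DESeq2, Camk2a in OB went from 0.39 to -1.46 and -1.47, Nefl in CX from 0.44 to -0.20 and -0.21, and Rbfox3 in HC from 0.09 to -0.054 and -0.081. Against the nearest single region, the values in OB were 0.18 for Snap25, -0.23 for Rbfox3, -0.17 for Tubb3, 0.34 for Stmn2 and -2.03 for Camk2a. In HC they were -0.27 for Rbfox3, 0.036 for Eno2 and -0.21 for Camk2a, and in CX -0.47 for Snap25, 0.77 for Tubb3 and -0.76 for Stmn2. Leaving out single samples spanned 0 for Syt1 in CX (-0.28 to 0.23), Tubb3 in CX (-1.37 to 0.35), Nefl in CX (-0.091 to 0.97), Rbfox3 in HC (-0.084 to 0.23), Eno2 in HC (-0.45 to 0.11) and Camk2a in OB (-0.44 to 0.79).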
